A study of Mus musculus with 6 samples.

Results

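The 8 genes described here encode cell surface proteins through which a macrophage talks to lymphocytes. They are Cd80, Cd86 and Icosl (costimulatory ligands of the B7 family), Cd274 and Pdcd1lg2 (the PD-1 ligands PD-L1 and PD-L2), Cd83 and Cd69 (markers of activation) and Slamf7 (a receptor of the SLAM family). They were chosen by name, with earlier results of these data known, and all 8 were found among the 54532 genes of the deposited table. The cells were peritoneal macrophages of wild-type male C57BL/6J mice aged 6 to 8 weeks, elicited with thioglycolate, washed from the peritoneal cavity and cultured overnight. Control cells received neither stimulus. Model cells were kept with LPS (500 ng/mL) over 5.5 h before ATP (2 mM) was present for a further 0.5 h. MUS cells had the same LPS and ATP, and muscone at 50 µM was added 5 h after LPS, which is 0.5 h before ATP. Each group had 2 libraries, and the sources used here do not say whether these came from separate cultures, so the p-values measure the spread between these libraries only.

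A T cell needs an antigen signal and a further signal from ligands such as CD80 and CD86, which bind CD28 and, with higher affinity, the inhibitory receptor CTLA-4. ICOS ligand acts through ICOS, while PD-L1 and PD-L2 bind PD-1 and restrain T cells. Macrophages and dendritic cells are known to raise CD80, CD86 and PD-L1 after recognition of microbial products, by way of NF-κB and interferon signalling. Transcript levels were measured here, not the surface proteins.

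The libraries were those of macrophages by their markers. All 10 macrophage markers listed had a mean of at least 1 FPKM, with a summed level of 9899 to 14626 FPKM per library. Lyz2 alone was at 7275 to 12007 FPKM, most of that sum. Elicited cells are not sorted. The CD3 chain genes of T cells Cd3d, Cd3e and Cd3g were under 0.1 FPKM in all 6 libraries. The neutrophil genes S100a9, Ly6g and Retnlg and the eosinophil genes Epx and Prg2 were listed at 0. Other markers of these cells were present. The neutrophil genes S100a8 and Mmp8 were at 13.5 to 110 and 2.63 to 6.62 FPKM. The eosinophil genes Siglecf and Ear2 were at 1.23 to 4.06 and 1.58 to 4.42 FPKM, and the T cell gene Lck reached 2.85 FPKM. Between 15526321 and 17135442 fragments lay on genes in a library, as recovered from the FPKM. Model replicate 1 had a fragment on 24906 genes, against 17406 to 19200 in the other libraries. Whether this raised its values for genes of low level was not tested. In bulk RNA, fewer cells of a type and less RNA per cell cannot be told apart.

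The 2 PD-1 ligand genes stand next to each other on mouse chromosome 19, with 22823 bases and 0 annotated genes between them (GENCODE M21, build GRCm38, whose gene positions the table shares). Cd274 spans chr19:29367455-29388095 and Pdcd1lg2 spans chr19:29410919-29471157, both on the plus strand, and the RefSeq start of Cd274 lies 17 bases before the GENCODE start. Since these neighbours differed so widely in level, the 250 bases before the start of each are shown in full, read from RefSeq (GRCm38.p6) on the plus strand, at chr19:29367188-29367437 for Cd274 and chr19:29410669-29410918 for Pdcd1lg2. Capitals mark a match to the NF-κB core on either strand, which is GGG, then NNNNN for any bases, then CC.

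Cd274: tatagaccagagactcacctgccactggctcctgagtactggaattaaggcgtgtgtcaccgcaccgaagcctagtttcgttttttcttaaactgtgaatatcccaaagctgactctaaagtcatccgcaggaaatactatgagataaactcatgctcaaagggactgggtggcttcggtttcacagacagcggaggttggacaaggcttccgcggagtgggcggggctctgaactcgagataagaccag

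Pdcd1lg2: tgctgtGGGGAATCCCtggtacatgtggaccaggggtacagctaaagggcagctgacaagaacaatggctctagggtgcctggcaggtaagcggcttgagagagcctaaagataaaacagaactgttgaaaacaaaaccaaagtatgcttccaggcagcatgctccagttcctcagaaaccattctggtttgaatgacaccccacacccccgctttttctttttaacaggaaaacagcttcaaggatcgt

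The Cd274 window held no NF-κB core. The Pdcd1lg2 window held 1, GGGGAATCCC, which reads as a match on both strands and lies 244 to 235 bases before the start. Windows of the same length were available for 3 other genes of the 8, and those of Cd80 and Icosl held 2 cores each while that of Slamf7 held 0. The windows of Cd80 and Slamf7 lie inside the annotated gene, before a start site within it. The core was present in 45.8% of all 32851 RefSeq windows, so its presence is common. The interferon-γ activated site TTCNNNGAA, found in 7.02% of windows, and the interferon-stimulated response element core, GAAA, NN and GAAA in a row, found in 2.98%, had no match on either strand in any of the 5 windows, and no match overlapped another. Windows for Cd83, Cd86 and Cd69 were not used here. A match is a description of letters only.

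The 8 genes covered a wide range of levels, and since FPKM are scaled to gene length they can be compared between genes. In Model the order was Cd274, Slamf7, Cd83, Cd86, Cd69, Cd80, Icosl and Pdcd1lg2, and no gene's libraries overlapped those of the next. In Control, neighbours in the order overlapped from Cd274 to Slamf7, from Slamf7 to Cd83, between Icosl and Cd80 and between Cd69 and Pdcd1lg2. In MUS, Cd69 and Cd80 overlapped and no other neighbours did. Ranked by mean FPKM among the 9794 genes tested, Cd274 stood at 230 in Control, 42 in Model and 28 in MUS. Cd69 stood at 9358 in Control and at 1801 in Model.

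**Figure D1:**
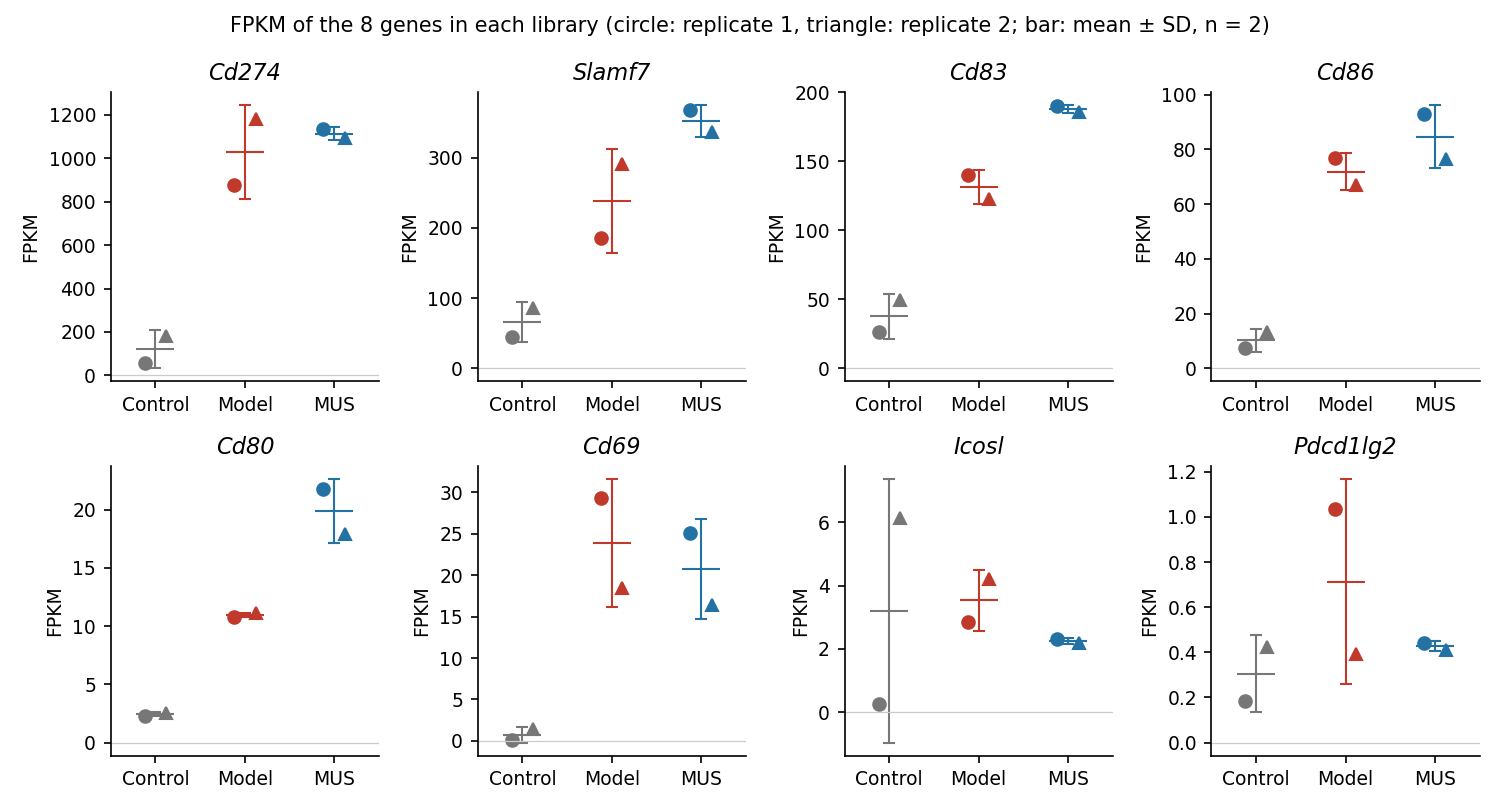
FPKM of each gene (y axis, linear, a separate scale per panel) in the 2 Control, 2 Model and 2 MUS libraries (x axis). Circles are replicate 1, triangles replicate 2, and bars the mean ± SD (n = 2). Every Model and MUS library of Cd274, Slamf7, Cd83, Cd86, Cd80 and Cd69 lies above both Control libraries, whereas Icosl and Pdcd1lg2 overlap.

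Model vs. Control asks what LPS and ATP together did to these transcripts. Of the 7 genes that passed the filter of a mean of 1 FPKM, 6 were upregulated and 0 were downregulated, at an adjusted p of at most 0.05 and a log2 fold change beyond 1 in limma. Among all 9794 genes tested 9.5% were upregulated and 5.56% downregulated. The 7 genes had a median log2 fold change of 1.88, and that of all genes tested was 0.04. The 6 upregulated genes were also the ones whose Model libraries lay above both Control libraries, which held for 32.6% of all genes tested (28.5% lay below). Pdcd1lg2, with a mean under 1 FPKM, was not tested. Cd69 had a mean of 0.762 FPKM in Control and passed the filter through Model and MUS, so its call could only be upward.

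Cd80 and Cd86, the ligands of CD28 and CTLA-4, were both upregulated. Cd80 was at 2.29 and 2.55 FPKM in Control and at 10.8 and 11.1 FPKM in Model. These libraries were close within each group, with a mean of 2.42 ± 0.183 in Control and 10.96 ± 0.206 in Model (SD, n = 2), a ratio of 4.53. On the log2(FPKM + 1) scale Cd80 rose by 1.81 (SE 0.22, 95% interval 1.29 to 2.32, limma adjusted p = 0.00390). Cd86 was at 7.28 and 13.1 FPKM in Control and at 76.7 and 67.0 FPKM in Model. It started from a higher level than Cd80 and its mean was 7.05 times higher in Model, a log2 fold change of 2.75 (SE 0.34, 95% interval 1.96 to 3.54, limma adjusted p = 0.00403). Both genes lie on chromosome 16, with 1789479 bases between them, Cd86 at chr16:36603869-36666081 on the minus strand and Cd80 at chr16:38455561-38496335 on the plus strand.

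Icosl, the ligand of ICOS, differed widely between the Control libraries. The gene lies at chr10:78069302-78083913 on the plus strand. It was at 0.265 and 6.13 FPKM in Control, from 28 and 648 fragments, and at 2.85 and 4.20 FPKM in Model. The Model libraries fell between the Control libraries, and the log2 fold change of 0.58 (95% interval -1.08 to 2.23, limma adjusted p = 0.595) did not pass. The value depended on which Control library was kept. Without Control replicate 2 it was 1.82 (limma adjusted p = 0.00866), and without Control replicate 1 it was -0.67 (limma adjusted p = 0.258).

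Cd274, which encodes PD-L1, was the highest of the 8 genes. It was at 58.7 and 183 FPKM in Control and at 876 and 1181 FPKM in Model, with both Model libraries far above the higher Control library. The group means were 121 ± 87.9 and 1028 ± 216 FPKM, and the log2 fold change was 3.28 (SE 0.56, 95% interval 1.97 to 4.59, limma adjusted p = 0.0109). Without Model replicate 1 the limma adjusted p was 0.0518 and without Model replicate 2 it was 0.0501, just above the threshold. An antisense gene of the annotation overlaps the exons of Cd274 by 511 bases, and the sources used here do not say that reads were counted by strand.

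Pdcd1lg2, which encodes the second PD-1 ligand, stayed near the lower limit of detection. The fragments on it numbered 7 and 16 for Control, 24 and 10 for Model and 11 for each MUS library. The table gave it a length of 1645 bases, where its annotated exons cover 1961. In FPKM the Control libraries were at 0.186 and 0.425, the Model libraries at 1.03 and 0.392, and the MUS libraries at 0.442 and 0.412. The highest value was that of Model replicate 1, the library with a fragment on the most genes (24906). Exact Poisson 95% intervals, which cover counting error only, were 0.662 to 1.54 FPKM for Model replicate 1 and 0.188 to 0.722 FPKM for Model replicate 2. They were 0.0748 to 0.383 FPKM for Control replicate 1 and 0.243 to 0.690 FPKM for Control replicate 2. In the 6 libraries 3 fragments correspond to 0.0797 to 0.129 FPKM. The Model libraries did not fall on one side of the Control libraries, so a difference was not detectable at this depth. In every library Pdcd1lg2 was far below its neighbour Cd274, at 0.00317 and 0.00232 of the Cd274 level in Control. This ratio was 0.00118 and 0.000332 for the Model libraries and 0.000390 and 0.000378 for the MUS libraries.

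Cd83 and Cd69, which mark activated antigen-presenting cells and activated leukocytes, were upregulated from very different starting levels. Cd83 lies at chr13:43784775-43803132 on the plus strand and Cd69 at chr6:129267325-129275436 on the minus strand. Cd83, whose product stabilises MHC class II and CD86 at the surface, was at 26.1 and 49.1 FPKM in Control and at 140.0 and 123 FPKM in Model. Its log2 fold change was 1.84 (SE 0.37, 95% interval 0.97 to 2.71, limma adjusted p = 0.0187). The call was lost when either Model library or either MUS library was left out, where the adjusted p was between 0.0512 and 0.0830. Cd69, a C-type lectin that holds leukocytes in tissue by binding the S1P1 receptor, was at 0.0806 and 1.44 FPKM in Control and at 29.3 and 18.4 FPKM in Model. The Control libraries rested on 12 and 215 fragments and the Model libraries on 2692 and 1857. Cd69 had the highest log2 fold change of the 8 genes, 3.90 (SE 0.44, 95% interval 2.86 to 4.94, limma adjusted p = 0.00325), and a pseudocount of 0.1 in place of 1 gave 5.47, while voom on the recovered fragments gave 6.06.

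Because Cd69 also marks T and NK cells and Cd83 dendritic cells, the markers of those cells are given beside them. The 12 T and NK cell markers summed to 0.810 and 0.335 FPKM in Control and to 3.87 and 1.72 FPKM in Model. The higher Model sum was that of replicate 1, the library with a fragment on the most genes. Lck, a T cell kinase, was the 1 marker of the 12 that was tested, and it was upregulated by 1.47 on the log2 scale (limma adjusted p = 0.0183). It was at 0.0448 and 0.134 FPKM in Control and at 2.85 and 1.37 FPKM in Model, most of the Model sums. Lck passed the filter through Model and MUS, so its call could only be upward. Cd3d, Cd3e and Cd3g stayed under 0.1 FPKM in every library. The 10 dendritic cell markers summed to 94.6 and 109 FPKM in Control and to 70.7 and 108 FPKM in Model, and 5 had a mean of at least 1 FPKM. Itgax alone was at 85.9 and 97.0 FPKM in Control and at 36.9 and 74.0 FPKM in Model, so these sums mainly follow Itgax. Ccl22, a chemokine, and Ccr7, a chemokine receptor, rose by 2.90 and 1.97 (limma adjusted p = 0.00322 and 0.00683). Ccl22 was at 0.150 and 1.17 FPKM in Control and Ccr7 at 0.398 and 0.884 FPKM, so their calls could only be upward. The other 3 tested were not called, with log2 fold changes of 0.89 for Fscn1 (limma adjusted p = 0.0457), 0.83 for Batf3 (0.104) and -0.79 for Itgax (0.206). Of the markers too low to be tested, Xcr1 was at 0.118 and 0.0982 FPKM in Control and at 1.24 and 0.652 FPKM in Model, Cd209a was at 0.403 to 1.10 FPKM over the 6 libraries, and Flt3, Zbtb46 and Clec9a were under 0.5 FPKM in every library. The 8 neutrophil markers summed to 20.5 and 34.4 FPKM in Control and to 55.2 to 114 FPKM in the other libraries, and S100a8, which macrophages can also express, rose by 1.90 (limma adjusted p = 0.0365). The B cell, eosinophil and mast cell markers summed to at most 11.8, 6.56 and 1.20 FPKM in any library. Of them only 2, 2 and 0 were tested and 0 were called, against 15.1% of all genes tested. With the fragments on genes as the total of a library, S100a8 lost its call. Itgax and Siglecf were then called down, as were 15.9% of all genes tested. The part of other cells in the differences of Cd69, Cd83 and the other genes was not tested.

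Slamf7, at chr1:171632403-171653035 on the minus strand, encodes a receptor that binds itself on neighbouring cells and regulates phagocytosis. It was at 45.2 and 85.8 FPKM in Control and at 186 and 291 FPKM in Model. The Model libraries were both higher than the Control libraries and also further apart. The log2 fold change was 1.88 (SE 0.42, 95% interval 0.89 to 2.88, limma adjusted p = 0.0266), the highest adjusted p of the 6. The call was lost when Control replicate 1, either Model library or either MUS library was left out, where the adjusted p was between 0.0581 and 0.0830. An antisense transcript, Gm37787, overlaps 423 exonic bases of Slamf7 and moved with it, at 0.374 and 1.57 FPKM in Control and 15.1 and 11.4 FPKM in Model. Without strand, reads of the pair cannot be told apart in the overlap. Gm37787 was far below Slamf7 in every library.

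Replicate 2 of Control was higher than replicate 1 for 8 of the 8 genes, against 53.2% of all genes tested. In Model this held for 4 of 8 genes, against 48.0% of all genes tested, and in MUS for 0 of 8, against 49.7%. The labels give the replicate number as the batch. Within each batch, Model exceeded Control for the 6 upregulated genes, by 1.30 to 4.81 on the log2 scale. For Cd274 the difference was 3.88 in batch 1 and 2.68 in batch 2, and for Cd69 it was 4.81 and 2.99, while for Cd80 it was 1.84 and 1.77. Icosl differed by 1.61 in batch 1 and by -0.45 in batch 2.

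**Figure D2:**
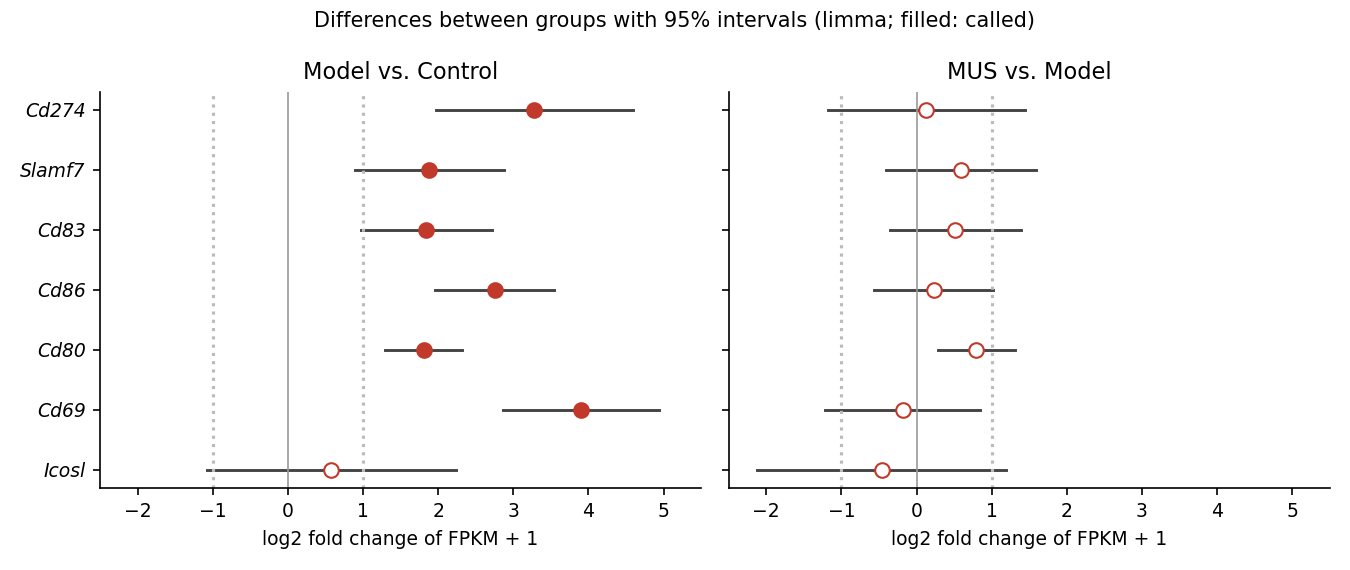
Difference between groups as log2 fold change of FPKM + 1 (x axis) for the 7 genes tested (y axis), in Model vs. Control on the left and MUS vs. Model on the right. Points are limma estimates, lines are 95% intervals, dotted lines mark a log2 fold change of 1 in either direction, and filled points passed the test. On the left 6 of 7 genes are filled, and on the right 0 are and the interval of Cd80 alone lies above 0.

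The deposited per-million scale differed between groups. The total behind it was 1.45 and 1.34 times the fragments on genes in the Control libraries and 0.909 to 0.998 times them in the other libraries. With the fragments on genes as the total instead, the median of all genes in Model vs. Control moved from 0.04 to -0.40, and all genes tested split into 646 upregulated (6.6%) and 1554 downregulated (15.9%) instead of 930 and 545. The 6 genes kept their calls and direction, with log2 fold changes of 1.39 for Cd80, 2.24 for Cd86, 2.74 for Cd274, 1.31 for Cd83, 3.68 for Cd69 and 1.34 for Slamf7. Quantile normalization left Cd83 at 1.13 (limma adjusted p = 0.0635) and Slamf7 at 1.07 (limma adjusted p = 0.132), so both lost their calls under that scaling, with which 7.22% of all genes tested were upregulated and 7.3% downregulated.

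MUS vs. Model asks what muscone added to cells already primed by LPS changed. This comparison shares the Model libraries with the one above. By limma 0 of the 7 genes tested were called, and among all 9794 genes tested 0% were called in either direction, with 825 genes at an unadjusted p under 0.05. By voom on the recovered fragments the count of the 7 genes called was also 0. By either tool Cd80 was the 1 gene of the 7 at an unadjusted p under 0.05. MUS libraries lay wholly above Model libraries for Cd80, Cd83 and Slamf7 (3 of 7, against 21.2% of all genes tested) and wholly below them for Icosl (1 of 7, against 21%).

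Cd80 was at 10.8 and 11.1 FPKM in Model and at 21.8 and 17.9 FPKM in MUS. Both MUS libraries were above both Model libraries, with means of 19.9 ± 2.74 and 10.96 ± 0.206 FPKM (SD, n = 2), a ratio of 1.81. The log2 difference was 0.80 (SE 0.22, 95% interval 0.28 to 1.31), with an unadjusted p of 0.00792 and a limma adjusted p of 0.400. Within batches the difference was 0.95 and 0.64. Without MUS replicate 1 the difference was 0.66 and its unadjusted p was 0.0699.

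The other genes differed less. Cd83 was at 140.0 and 123 FPKM in Model and at 190 and 186 FPKM in MUS, a log2 difference of 0.52 with a 95% interval of -0.36 to 1.39 (limma adjusted p = 0.759). Slamf7 was at 186 and 291 FPKM in Model and at 368 and 336 FPKM in MUS, a difference of 0.60 with an interval of -0.40 to 1.59 (limma adjusted p = 0.759). Both genes had MUS libraries above the Model libraries, and both intervals included 0.

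Cd86 was at 76.7 and 67.0 FPKM in Model and at 92.8 and 76.5 FPKM in MUS, and its groups overlapped (log2 difference 0.23, 95% interval -0.56 to 1.02). Cd274 was at 876 and 1181 FPKM in Model and at 1134 and 1091 FPKM in MUS, with both MUS libraries between the Model libraries (0.13, 95% interval -1.18 to 1.44). Both intervals include 0 and extend past a log2 difference of 1. Cd69 was at 25.0 and 16.4 FPKM in MUS and overlapped Model (-0.19, 95% interval -1.22 to 0.85). Icosl was at 2.31 and 2.19 FPKM in MUS, below both Model libraries (-0.46, 95% interval -2.12 to 1.19).

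A ratio between 2 genes in the same library does not depend on the scaling of that library. Cd86 was 3.18 and 5.14 times the level of Cd80 in Control, 7.09 and 6.04 times in Model, and 4.26 and 4.27 times in MUS. Model libraries were the highest in this ratio, and the MUS libraries lay inside the Control range. Cd274 was 25.6 and 71.8 times the level of Cd80 in Control, 81.0 and 106 times in Model, and 52.0 and 60.8 times in MUS, with the Model libraries again the highest. The ratio of Cd274 to Cd86 overlapped between all groups, at 8.07 and 14.0 for Control, 11.4 and 17.6 for Model and 12.2 and 14.2 for MUS. Icosl was at 0.0364 and 0.468 of the level of Cd86 in Control, with 0.0372 and 0.0627 for Model and 0.0249 and 0.0285 for MUS. These ratios were not tested, since an exact permutation test of 2 against 2 libraries gives a two-sided p of at least 0.333.

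**Figure D3:**
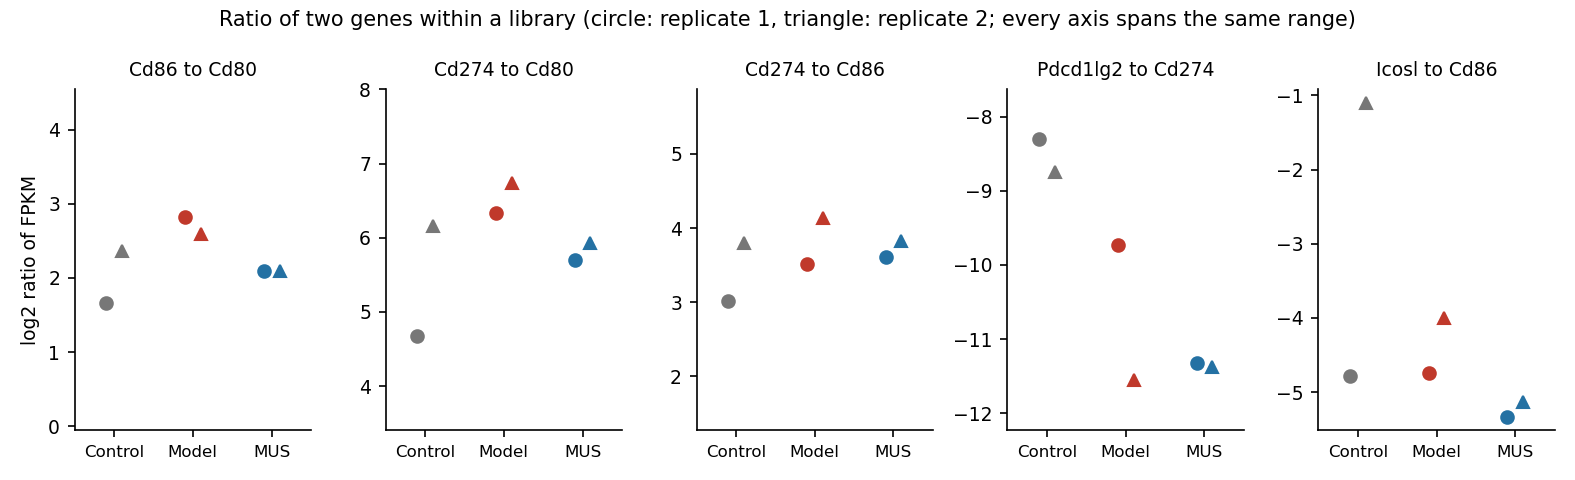
Log2 ratio of the FPKM of a pair of genes within each library (y axis, same span in every panel) in Control, Model and MUS (x axis). Circles are replicate 1 and triangles replicate 2. The Cd86 to Cd80 ratio is highest in Model (log2 2.83 and 2.59) and close to log2 2.09 in both MUS libraries, and Control replicate 2 stands apart in the Icosl to Cd86 ratio.

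MUS vs. Control, which shares its Control libraries with Model vs. Control, gave 6 upregulated genes of 7, against 11.3% of all genes tested, while 0 were downregulated, against 8.91% (20.2% were called in either direction). MUS libraries lay above both Control libraries for the same 6 genes, against 39.6% of all genes tested, and below them for 0, against 33.8%. The log2 fold changes were 2.60 for Cd80 (limma adjusted p = 0.00133), 2.98 for Cd86 (0.00277), 3.41 for Cd274 (0.00762), 2.36 for Cd83 (0.00687), 3.71 for Cd69 (0.00315) and 2.48 for Slamf7 (0.00864). Icosl, at 0.11 (limma adjusted p = 0.924), was not called. Without MUS replicate 1 the calls of Cd86, Cd274, Cd83 and Slamf7 were lost, with adjusted p of 0.0506 to 0.0946, and without MUS replicate 2 those of Cd274, Cd83 and Slamf7 were lost.

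Among 10 other ligands of the B7 and SLAM families 8 were tested in Model vs. Control, and 2 rose, 1 fell and 5 did not pass, with a median log2 fold change of 0.04. As above, 9.5% of all genes tested rose and 5.56% fell, and this list and those below were also chosen with earlier results known. Slamf1, a self-binding SLAM receptor, rose by 3.44 (limma adjusted p = 0.000703) and Slamf9 rose by 2.79 (limma adjusted p = 0.00397). Slamf1, at 0 and 0.128 FPKM in Control, passed the filter through Model and MUS, so its call could only be upward. Vsir, which encodes the inhibitory ligand VISTA, fell by 2.48 on the log2 scale (limma adjusted p = 0.00996), from 71.4 and 30.6 FPKM in Control to 9.10 and 6.32 FPKM in Model. This B7 family coinhibitory ligand fell while Cd274 rose. Under fragment-total scaling Ly9 and Cd84 were also called down, as were 15.9% of all genes tested.

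Of 17 other costimulatory and coinhibitory ligands 12 were tested, and 6 rose and 0 fell (9.5% and 5.56% of all genes tested), with a median of 1.92. Cd40, the receptor through which helper T cells license antigen-presenting cells, rose by 5.33 (limma adjusted p = 0.0105). The Control libraries of Cd40 were far apart, at 1.72 and 22.5 FPKM, and its Model libraries were at 406 and 255 FPKM. Tnfsf15, the ligand of death receptor 3, rose by 4.54 (limma adjusted p = 0.00955), and Tnfsf9, the ligand of 4-1BB, rose by 3.83 (limma adjusted p = 0.0285). Under fragment-total scaling 5 rose and 2 fell (6.6% and 15.9% of all genes tested). Of 12 receptors and adaptors for these ligands 3 were tested, of which 1 rose and 0 fell (9.5% and 5.56% of all genes tested). Lag3, an inhibitory receptor, rose by 2.03 (limma adjusted p = 0.00896). It was at 0.0622 FPKM in both Control libraries and passed the filter through Model and MUS, so its call could only be upward. Cd28, with a mean under 1 FPKM, was not tested. It was lower in Model, at 2.02 and 0.600 FPKM in Control and at 0.162 and 0.0738 FPKM in Model. Ctla4, Icos and Pdcd1 were at 0.304 FPKM or less in every library.

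Among genes that act on the surface level of these proteins 9 were tested, and 2 rose and 1 fell, with 9.5% and 5.56% of all genes tested doing so. March1, a ubiquitin ligase that removes CD86 and MHC class II from the surface, rose by 1.76 (limma adjusted p = 0.0220). Cmtm6, which protects PD-L1 from degradation, rose by 1.42 (limma adjusted p = 0.0190). S1pr1, whose product CD69 draws from the surface, fell by 1.81 (limma adjusted p = 0.00325). Under fragment-total scaling Cmtm6 lost its call and Cmtm4 was called down.

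Of 17 transcription factors and kinases known to act on these genes, all were tested, and 7 rose and 1 fell (9.5% and 5.56% of all genes tested). Jak2, the kinase of interferon-γ signalling, rose by 3.21 (limma adjusted p = 0.0142) and Nfkb2, an NF-κB subunit, rose by 2.79 (limma adjusted p = 0.0227). Jun, an AP-1 subunit, fell by 1.63 on the log2 scale (limma adjusted p = 0.0220). Under fragment-total scaling 6 rose and 3 fell (6.6% and 15.9% of all genes tested), and under quantile normalization 3 rose and 2 fell (7.22% and 7.3%). Jak2 lies on chromosome 19 upstream of Cd274, 54374 bases away with 3 genes between. In MUS vs. Model 0 genes of any of these 5 lists were called, and their medians lay between -0.12 and -0.04, beside 0.01 for all genes tested.

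**Figure D4:**
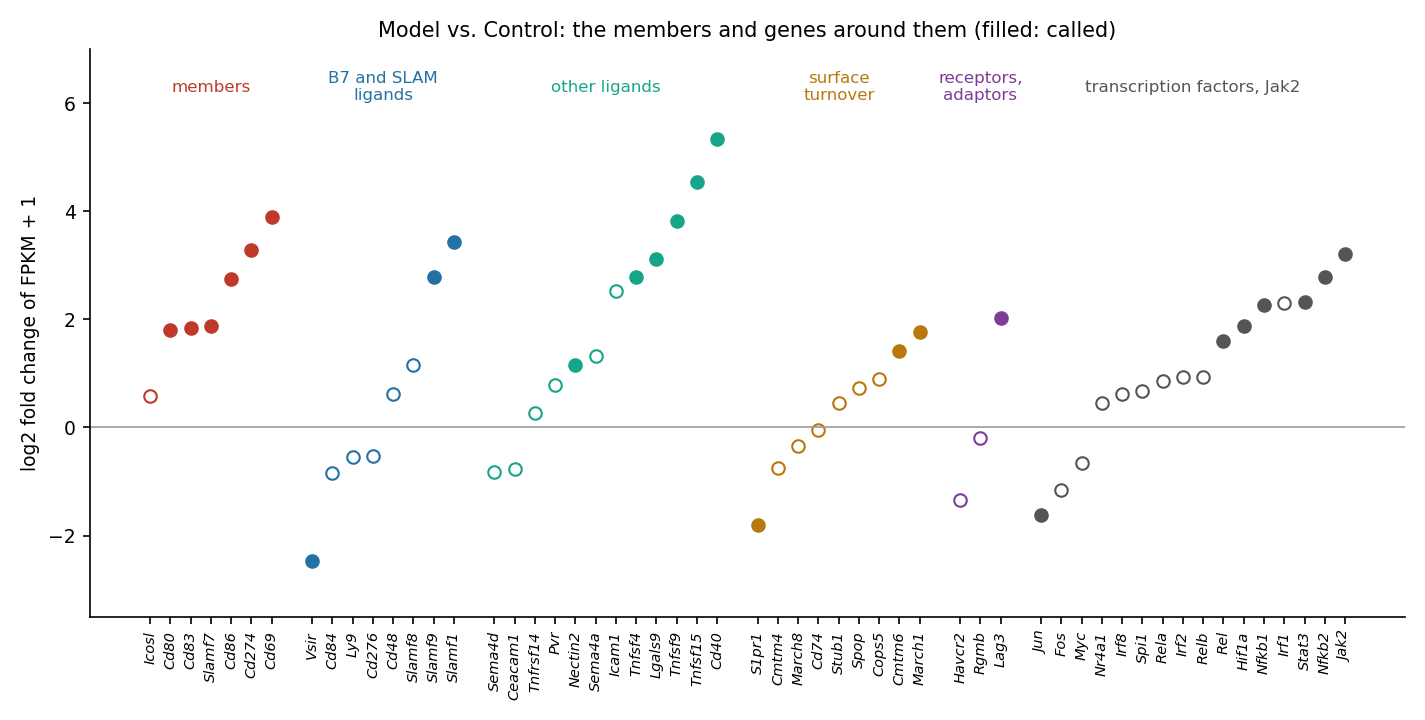
Log2 fold change of FPKM + 1 in Model vs. Control (y axis) for the 7 tested genes described here (red) and for tested genes of 5 other lists (x axis, ordered by value within each list). Filled points passed the test. Cd40 is highest at 5.33 and Vsir lowest at -2.48.

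The genes with the most similar profiles were found by the root mean square difference of log2(FPKM + 1) over the 6 libraries, after centring each gene on its own mean. For Cd274 these were Irgm2, an interferon-inducible GTPase, at 0.0276, and Jak2, which lies nearby on the chromosome, at 0.147. For Cd69 they were Nt5c3, a pyrimidine nucleotidase, at 0.0835 and Ifi204, an interferon-inducible DNA sensor, at 0.118. For Cd86 they were Car13, a carbonic anhydrase, at 0.0878 and Pdpn, which encodes podoplanin, at 0.127. Cd80 was closest to Nr4a3, a nuclear receptor, at 0.137 and to the cytokine gene Lif at 0.145. Cd83 was closest to Lyn, a Src family kinase, at 0.116 and to Ugcg, a glycolipid synthase, at 0.151. Slamf7 was closest to Tlr7, a receptor for RNA, at 0.135 and to Tdrd7 at 0.143. Icosl was closest to Ampd3, an AMP deaminase, at 0.191 and to Foxp4 at 0.234, the largest differences of the 7.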

How the data were processed

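RNA-seq of mouse peritoneal macrophages was deposited by the authors as 1 table of FPKM with 1 column for each of 6 libraries, and all 6 columns were used (0 had no sample). The labels name HISAT2, featureCounts 1.5.0-p3 and the build GRCm39, whereas the paper's methods name RSEM for FPKM and DESeq2. The positions in the table were those of GRCm38 for 98.3% of 54495 identifiers shared with GENCODE M21. FPKM times gene length was a whole multiple of 1 step per library (100% of values within a tolerance of 0.1 step), which gave the fragments on each gene. These were used for intervals, scaling and an alternative with voom. Genes with at least 1 FPKM on average (9794) were fitted as log2(FPKM + 1) with limma 3.58.1 (eBayes with trend, R 4.3.3), with all 6 libraries in 1 model of 3 groups (3 residual and 4.04 prior degrees of freedom). The p-values were two-sided and adjusted by the Benjamini-Hochberg method over all genes tested, and a gene was called where the adjusted p did not exceed 0.05 and the log2 fold change was beyond 1 either way. The fold changes are on the log2(FPKM + 1) scale, which understates changes of low genes. The filter used the mean of all 6 libraries. Genes under it in Control, such as Cd69, Slamf1, Tnfsf4, Tnfsf15, Nectin2, Lag3, Ccl22, Ccr7 and Lck, could therefore be called only upward in comparisons with Control. The fit was tested on simulated data.

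The 8 genes and the gene lists were chosen with earlier results of these data known. Beyond the 8, the genes named are those called, at most 3 rising and 3 falling per list and comparison, and the 2 protein-coding genes nearest to each tested gene in profile. The result for 1 gene of the lists is not reported here, although it is included in the counts. The markers and the genes listed at low level were named after their values were seen. In the deposited data 27 symbols had been turned into dates, March1 among them, and they were matched by identifier. The labels give the replicate number as a batch, which would pair the libraries, and the main model had no block for it. Differences between replicates correlated across genes between Control and Model (r = 0.12), Model and MUS (0.14) and MUS and Control (-0.09). Of 50-base stretches of transcripts, 1.68% for Cd274 and 0.0916% for Cd69 also occurred in other genes, and 0% for the other 6. Alternatives changed the pseudocount, the filter, the scaling, the model, the replicate block and the libraries included. Python 3.11.15 with pandas 2.3.3, NumPy 2.4.6 and Matplotlib 3.10.9 prepared tables and figures.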

Additional observations from a re-analysis of the deposited data

How the results depend on the processing

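In Model vs. Control 6 genes were called up, and 3 with no filter on low values. In that setting 30192 genes shared the adjustment and the prior degrees of freedom were 2.20 instead of 4.04. Leaving out 1 library gave 3 to 7. In MUS vs. Control 6 were called up, 3 with no filter, and 2 to 7 with 1 library left out. In MUS vs. Model the count stayed at 0, also with 1 library left out. Cd80, Cd86 and Cd69 were called in Model vs. Control under 16 of 16 alternatives, Cd274 under 13, Cd83 under 9 and Slamf7 under 8. Where only 1 library of a group was left, it was assumed to vary like the others. With the replicate block the counts were 6, 0 and 6 in Model vs. Control, MUS vs. Model and MUS vs. Control, and no call among the 8 genes changed. The sign turned in differences that had not been called. In Model vs. Control, Icosl ranged from -0.67 (without Control replicate 1) to 1.82 (without Control replicate 2). In MUS vs. Model, Cd274 ranged from -0.0866 to 0.34 (without Model replicates 1 and 2), and Cd69 ranged from -0.51 to 0.13 (without Model replicates 2 and 1) and was 0.10 without MUS replicate 2. In MUS vs. Control, Icosl was -0.18 under fragment-total scaling, -0.20 when rescaled without mitochondrial and the 20 highest genes, -0.0182 under quantile normalization, and ranged from -1.14 to 1.36 (without Control replicates 1 and 2). The cause was not tested. Fragments were few for Pdcd1lg2, with 7 to 24 per library, and for Cd69 in Control, with 12 and 215. With 2 libraries per group, no group could be tested for an outlying library.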
